A study of Mus musculus with 18 samples.

Results

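The genes of the mitochondrial ribosomal proteins were followed through lipopolysaccharide (LPS) stimulation of dendritic cells of WT and KO genotype. They were taken as every row of the deposited expression table whose symbol is Mrpl or Mrps followed by a number and, where present, a letter a, b or c. This rule found 78 of 16614 genes, and all 78 passed the filter on low counts that kept 11989 genes for testing. By their known place in the mammalian mitoribosome, 51 encode proteins of the large subunit and 26 of the small subunit. The remaining gene, Mrps36, carries a ribosomal name but encodes a component of the 2-oxoglutarate dehydrogenase complex. The symbols do not always give the subunit, since the products of Mrps18a and Mrps30 sit in the large subunit.

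Mitochondria carry their own ribosome, which translates only the few mRNAs of mitochondrial DNA, all of them for subunits of the respiratory chain and ATP synthase. Every protein of this ribosome is encoded in the nucleus, made in the cytosol and imported, so its assembly depends on many separate nuclear genes. Some of these proteins descend from bacterial ribosomal proteins, and others were added in the mitochondrial lineage. In dendritic cells, LPS is sensed by Toll-like receptor 4 and is known to move energy metabolism from respiration toward glycolysis.

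The libraries came from total RNA of mouse bone marrow-derived dendritic cells, grown with GM-CSF and Flt3L and enriched for XCR1, the chemokine receptor that marks type 1 conventional dendritic cells (cDC1). There were 4 control and 5 LPS libraries of each genotype, and all 4 groups shared the culture and the enrichment. Cells were either sorted on CD11c and Xcr1 or taken with an XCR1 antibody and beads, and which library had which is not stated. The deleted gene is not named in the labels, nor are the driver of any deletion, the age of the mice, or the dose and time of LPS. The title of the series speaks of the balance of STAT5 and STAT3. Whether replicates are separate animals is not stated either, so p-values measure the spread between these libraries, which may be technical.

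Each library held 25590104 to 27375189 estimated counts, and no mitochondrial ribosomal protein gene had a count of 0 in any of them. All 11 cDC1 markers were detected in every group, with a summed level of 4338 to 4705 TPM (transcript level corrected for transcript length and library size) in WT control and 3943 to 4491 in KO control. With LPS it was 1865 to 2575 TPM in WT and 1602 to 2046 in KO. Of these 11, 1 was called lower in KO than in WT in control, and 5 lower and 1 higher with LPS. Of all tested genes, 2.41% and 10.8% were called in these contrasts. For LPS against control, 2 cDC1 markers were called higher and 7 lower in WT, and 3 and 6 in KO. Markers of plasmacytoid cells summed to 147 to 188 TPM in control and 791 to 1081 TPM with LPS over both genotypes, and those of monocytes and macrophages to 294 to 348 and 86.7 to 153 TPM. Single markers of both lists went both ways. Of 4 tested plasmacytoid markers, 2 were called higher and 2 lower with LPS in each genotype. Of 8 monocyte and macrophage markers, 5 were called higher in each genotype, and 2 lower in WT and 3 in KO. Of all tested genes, 40.7% were higher and 44.7% lower in WT, and 40% and 46.2% in KO. Of 7 neutrophil markers, the summed level was 238 TPM in WT control replicate 4 and 519 TPM in WT LPS replicate 5. The other 16 libraries lay between 0.74 and 14.8 TPM, with Ly6g at 0 in the KO LPS group. The 20 proliferation genes summed to 1625 to 1862 TPM in WT control and 1330 to 1402 in KO control, and with LPS to 338 to 662 in WT and 358 to 464 in KO. In bulk RNA, fewer cells of a type and less RNA per cell cannot be told apart. The part of these markers in the results below was not tested, except where values without those libraries are given.

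Levels of single genes are compared in TPM, which corrects for transcript length. In WT control cells, the members spanned 5.74 to 222 TPM, a 38.7-fold range, with a median of 40.6 TPM. Mrps21, a small-subunit protein of bacterial descent, was the most abundant at 222 ± 11.1 TPM (SD, n = 4). Mrpl52, a large-subunit protein specific to mitochondria, followed at 208 TPM. After Mrpl33 at 168 ± 17.1 TPM, a group of 5 genes lay close together, namely Mrpl18 and Mrps18c at 138 TPM each, Mrpl30 at 133 TPM, Mrpl42 at 130 TPM and Mrpl54 at 129 ± 10.4 TPM (SD, n = 4). The neighbours in this group differed by less than their spread. At the other end were Mrpl17 at 5.74 TPM, Mrps25 at 6.07 TPM and Mrpl35 at 6.07 TPM. With LPS the range widened. In WT LPS libraries Mrps21 was still highest at 173 ± 18.4 TPM (SD, n = 5), beside Mrpl54 at 169 ± 15.3 TPM (SD, n = 5), and Mrps25 was lowest at 2.51 TPM. The number of members under 10 TPM was 5 in WT control and 15 in WT LPS, and the number above 100 TPM was 8 and 3. The TPM ratio of highest to lowest member in WT LPS was 68.7.

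LPS moved the mitochondrial ribosomal protein genes in both directions. Counts were compared with edgeR's quasi-likelihood test after scaling by trimmed means (TMM), and calls were made where the p adjusted over all 11989 genes by Benjamini and Hochberg was under 0.05. In WT cells, 22 of 78 members rose (28.2%) and 32 fell (41.0%). Of all tested genes, 85.5% were called in this contrast, 40.7% higher and 44.7% lower, so both shares of the members lay below the background. The median log2 fold change was -0.06 over the members and -0.06 over all tested genes. In KO cells, 17 members rose (21.8%) and 40 fell (51.3%), beside 86.2% of all tested genes called, 40% higher and 46.2% lower. Their median was -0.23, and that of all tested genes was -0.10.

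These directions depend on how libraries are set to a common scale. TMM factors were 1.35 to 1.37 in WT control and 0.745 to 0.850 in WT LPS. With total-count scaling, 2 members rose and 68 fell in WT, and 3 rose and 72 fell in KO. Of all 11989 tested genes, 2379 rose and 8375 fell in WT, and 2416 rose and 8437 fell in KO under that scaling. The median over all tested genes then shifted to -0.80 in WT and -0.88 in KO, beside -0.81 and -1.01 for the members. With deposited TPM the split was 4 higher and 69 lower in WT, and 3 and 70 in KO. Over all 11989 tested genes it was 2400 and 8295 in WT, and 2652 and 7945 in KO. An offset for the trend of level with transcript length in each library used the length implied by count and FPKM. With it the split was near even, with 28 higher and 30 lower in WT and 28 and 29 in KO (median -0.02). Of 10837 genes tested there, 5009 were higher and 4507 lower in WT, and 5029 and 4593 in KO. Members called in a single direction under all of TMM, relative log, upper-quartile and total-count scaling and TPM numbered 2 higher and 30 lower in WT, where 19.6% of all tested genes were higher and 43% lower by that rule. In KO cells 3 were higher and 37 lower, beside 20% and 43.4% of all tested genes. In WT, 20 members had every LPS library above every control library and 31 had every one below, beside 36.6% and 41.3% of all tested genes. In KO these were 14 and 38, beside 37.8% and 44%. The members higher under all scalings were Mrpl39 and Mrpl54 in both genotypes, joined by Mrps7 in KO.

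**Figure D1:**
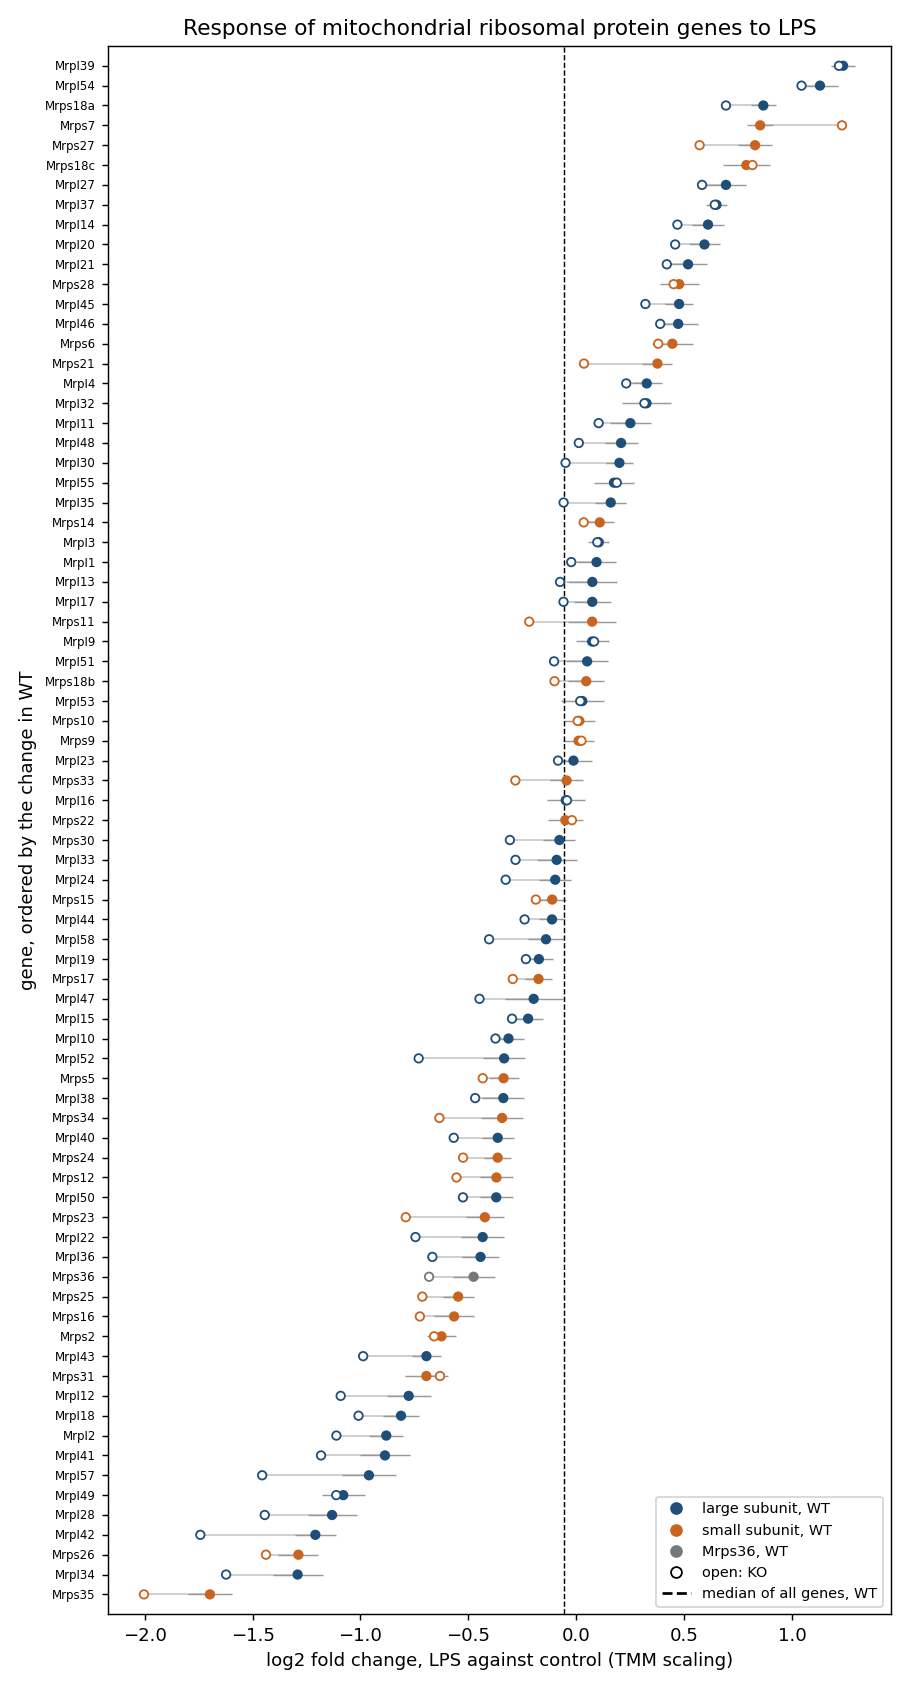
Log2 fold change of LPS against control under TMM scaling (horizontal axis) for each of the 78 genes, ordered by the change in WT. Filled points are WT with a horizontal bar of 1 standard error, open points are KO, and a grey line joins them. The dashed line is the WT median of all tested genes, at -0.06. The genes run from Mrps35 at -1.70 to Mrpl39 at 1.24 in WT, and open points lie mostly to the left of filled ones.

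Of the large-subunit genes, 16 of 51 rose and 19 fell in WT (median -0.05), beside 40.7% of all tested genes higher and 44.7% lower. In KO, 12 rose and 25 fell (median -0.10), beside 40% and 46.2%. Mrpl39 (gene ID 27393), a large-subunit protein specific to mitochondria, had the highest fold change of all members in WT. Its normalised level was 28.1, 25.7, 25.3 and 26.8 CPM (counts relative to the TMM-scaled library total) in WT control and 58.7, 66.8, 63.5, 62.4 and 60.7 CPM in WT LPS. In KO it was 26.5, 25.1, 24.7 and 27.8 CPM in control and 59.1, 64.1, 63.2, 58.8 and 57.4 CPM with LPS. Every LPS library lay above every control library, and the genotypes overlapped. The log2 fold change was 1.24 ± 0.05 (SE, edgeR adjusted p = 3.84e-14) in WT and 1.22 ± 0.06 (4.34e-14) in KO, or 0.49 and 0.44 with total-count scaling.

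Mrpl54 (gene ID 66047), also specific to mitochondria, stood at 20.4, 19.1, 16.0 and 18.0 CPM in WT control and at 44.2, 43.8, 39.4, 39.6 and 34.3 CPM in WT LPS. The KO libraries read 20.6, 18.9, 21.2 and 21.3 CPM in control and 41.3, 49.0, 40.4, 42.1 and 38.5 CPM with LPS. Again no LPS library overlapped a control library. The rise was 1.13 ± 0.09 (SE, edgeR adjusted p = 1.78e-10) in WT and 1.04 ± 0.09 (5.1e-10) in KO, or 0.38 and 0.26 with total-count scaling.

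The steepest declines in the large subunit in WT were those of Mrpl34 and Mrpl28, of bacterial descent, and of Mrpl42, specific to mitochondria. Mrpl34 was at 12.4, 12.3, 11.9 and 11.1 CPM in WT control and at 5.46, 3.17, 6.14, 5.00 and 4.47 CPM in WT LPS, a change of -1.29 ± 0.12 (SE, edgeR adjusted p = 2.52e-09). In KO it went from 11.9, 13.5, 13.2 and 13.6 CPM to 4.45, 3.71, 4.10, 4.36 and 4.56 CPM (-1.62 ± 0.12, edgeR adjusted p = 8.86e-11). The lowest of the 18 libraries was WT LPS replicate 2, and control and LPS libraries did not overlap in either genotype. Mrpl28 was at 35.9, 35.2, 31.4 and 33.3 CPM in WT control and at 18.0, 10.4, 16.6, 17.3 and 15.1 CPM in WT LPS (-1.13 ± 0.11, edgeR adjusted p = 1.37e-08). In KO it was at 31.0, 32.9, 32.1 and 39.6 CPM in control and at 12.0, 11.1, 14.0, 12.3 and 12.9 CPM with LPS (-1.44 ± 0.12, edgeR adjusted p = 4.06e-10). WT LPS replicate 2 was again the lowest library of its group. Mrpl57, specific to mitochondria, was among the 5 lowest in KO, with a change of -1.46 ± 0.13 (SE, edgeR adjusted p = 1.78e-09) there and -0.96 ± 0.13 in WT.

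The stalk of the large subunit recruits translation factors to the ribosome. Its mobile arm, encoded by Mrpl12, fell from 36.2, 34.6, 27.5 and 32.6 CPM in WT control to 22.4, 14.7, 19.8, 19.7 and 19.0 CPM in WT LPS (-0.78 ± 0.10 SE, edgeR adjusted p = 7.06e-07). In KO it fell from 34.9, 34.9, 32.9 and 38.9 CPM to 14.9, 15.4, 18.9, 15.5 and 18.2 CPM (-1.09 ± 0.10, edgeR adjusted p = 5.37e-09). No LPS library reached the lowest control library in either genotype. Mrpl10, the anchor of that arm, fell by 0.31 in WT and by 0.37 in KO. Mrpl11, at the base of the stalk, rose by 0.25 ± 0.09 (SE, edgeR adjusted p = 0.0192) in WT with TMM but stood at -0.49 with total-count scaling, -0.02 with upper-quartile scaling and -0.44 with TPM. In KO its change was 0.10 ± 0.09 (adjusted p = 0.308).

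Of 8 proteins of the central protuberance, a knob at the interface with the small subunit, 3 rose in WT (Mrpl27, Mrpl46 and Mrpl48) and 3 fell (Mrpl18, Mrpl38 and Mrpl40). In KO 2 rose and 5 fell. The shares of all tested genes were 40.7% higher and 44.7% lower in WT, and 40% and 46.2% in KO. With total-count scaling Mrpl27, Mrpl46 and Mrpl48 stood at -0.05, -0.27 and -0.54 in WT. Under all 5 scalings 0 of the 8 were higher and 3 lower in WT, beside 19.6% and 43% of all tested genes. In KO these were 0 and 5, beside 20% and 43.4%. Mrpl58, a peptidyl-tRNA hydrolase that can free stalled ribosomes, changed by -0.14 ± 0.08 (SE, edgeR adjusted p = 0.113) in WT and fell by 0.40 in KO (adjusted p = 0.000142). Mrps30, a large-subunit protein in spite of its name, read -0.08 ± 0.07 (SE, edgeR adjusted p = 0.33) in WT and fell by 0.31 in KO (adjusted p = 0.000765). Whether these genes differed in response between genotypes was tested by the interaction of genotype and LPS given below, and neither passed. Mrpl52, next to Mrps21 in abundance, fell by 0.33 in WT and by 0.73 in KO on the log2 scale with TMM. Its deposited level was 208 TPM in control and 98.4 TPM with LPS in WT, and 224 and 85.0 TPM in KO. Of the least abundant members, Mrpl35 rose by 0.16 ± 0.07 (SE, edgeR adjusted p = 0.043) in WT with TMM and stood at -0.58 with total-count scaling, while Mrpl17 read 0.07 with TMM and -0.67 with total-count scaling.

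Of the small-subunit genes, 6 of 26 rose and 12 fell in WT (median -0.08), and 5 rose and 14 fell in KO (median -0.25), beside the same shares of all tested genes. The lowest fold change of all 78 members was that of Mrps35 (gene ID 232536), a small-subunit protein specific to mitochondria. It read 12.0, 10.4, 9.69 and 10.0 CPM in WT control and 3.45, 3.27, 3.09, 3.42 and 2.99 CPM in WT LPS, a change of -1.70 ± 0.10 (SE, edgeR adjusted p = 4.51e-12). In KO it read 11.8, 9.98, 11.9 and 13.2 CPM in control and 3.12, 2.57, 2.96, 2.51 and 3.46 CPM with LPS, a change of -2.003 ± 0.10 (edgeR adjusted p = 3.78e-13). The control libraries were all far above the LPS libraries, and within each treatment the genotypes overlapped.

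Mrps26 (gene ID 99045), also specific to mitochondria, was at 20.9, 18.9, 17.7 and 18.1 CPM in WT control and at 7.88, 6.38, 8.68, 8.46 and 7.27 CPM in WT LPS (-1.29 ± 0.09 SE, edgeR adjusted p = 8.38e-11). In KO it was at 20.2, 19.7, 17.4 and 21.8 CPM in control and at 6.502, 8.26, 7.71, 7.52 and 6.51 CPM with LPS (-1.44 ± 0.09, edgeR adjusted p = 1.52e-11). The treatments did not overlap. Mrps12, which lies at the decoding centre, fell by 0.37 in WT and by 0.55 in KO. Mrps25, the least abundant member with LPS, fell by 0.55 and by 0.71. Its annotated exons overlap those of Nr2c2 over 69.8% of their length. Mrps21, the most abundant member, rose by 0.38 ± 0.07 (SE, edgeR adjusted p = 5.03e-05) in WT with TMM, but stood at -0.37 with total-count scaling and at -0.37 with TPM. In KO it read 0.04 ± 0.07 (adjusted p = 0.636).

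Mrps18a, Mrps18b and Mrps18c are homologues of a single bacterial protein, S18, that occupy different places in the mitoribosome. Mrps18a, in the large subunit, was at 13.9, 12.5, 12.4 and 13.9 CPM in WT control and at 24.5, 23.3, 23.6, 23.5 and 25.4 CPM in WT LPS (0.87 ± 0.06 SE, edgeR adjusted p = 2.46e-11). In KO it read 14.0, 14.2, 15.2 and 15.3 CPM in control and 21.8, 24.9, 24.1, 23.8 and 23.8 CPM with LPS (0.69 ± 0.06, edgeR adjusted p = 6.93e-10), but total-count scaling gave 0.12 in WT and turned the KO value to -0.09. With TMM, no LPS library of Mrps18a overlapped a control library. Mrps18c, in the small subunit, was at 15.1, 12.5, 14.8 and 13.8 CPM in WT control and at 22.8, 31.3, 20.6, 23.7 and 23.0 CPM in WT LPS (0.79 ± 0.11, edgeR adjusted p = 1.08e-06), or 0.04 with total-count scaling. In KO it was at 13.2, 12.0, 12.3 and 14.7 CPM in control and at 21.5, 27.5, 21.3, 22.9 and 21.996 CPM with LPS (0.82 ± 0.11, edgeR adjusted p = 7.22e-07). Replicate 2 was the highest library in both LPS groups. Mrps18b, in the small subunit, read 19.6, 18.5, 17.7 and 19.5 CPM in WT control and 21.9, 15.8, 18.9, 21.2 and 19.2 CPM in WT LPS. The groups overlapped, and its change was 0.05 ± 0.08 (SE, edgeR adjusted p = 0.612) in WT and -0.10 ± 0.08 (adjusted p = 0.264) in KO, with TMM. Total-count scaling gave -0.69 and -0.88.

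**Figure D2:**
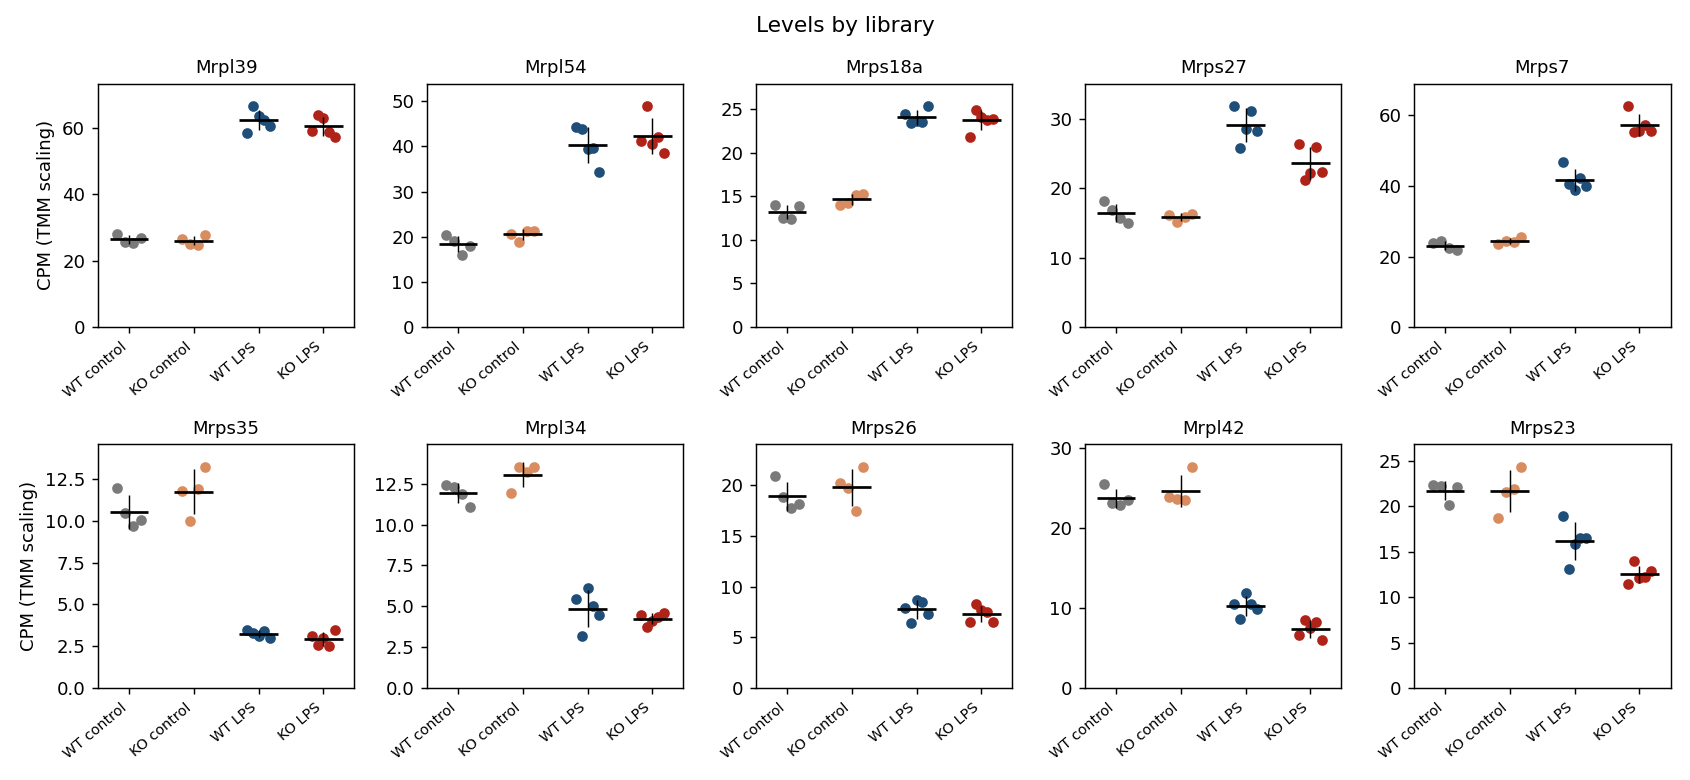
TMM-scaled CPM (vertical axes, from 0) of 10 members in every library, with a point for each of the 18 libraries, a horizontal line at the group mean and a vertical bar of 1 SD. Mrpl39, Mrpl54, Mrps18a, Mrps27 and Mrps7 lie higher with LPS and Mrps35, Mrpl34, Mrps26, Mrpl42 and Mrps23 lower, and Mrps7 and Mrpl42 do not overlap between WT LPS and KO LPS.

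Split by descent, 14 of 46 members that are the main counterpart of a bacterial protein rose in WT and 16 fell (median 0.01). Of the other 31, added in the mitochondrial lineage and counting Mrps18a and Mrps18b as additional copies of S18, 8 rose and 15 fell (median -0.14). In KO the counts were 10 higher and 20 lower (median -0.07) against 7 higher and 19 lower (median -0.40). Beside these counts, 40.7% of all tested genes were higher and 44.7% lower in WT, and 40% and 46.2% in KO. No test of the difference between these classes was made. The 10 small-subunit proteins of the second class, Mrps18b among them, had a median of -0.38 in WT, where Mrps27 rose with TMM and 6 fell. Mrps36, which is not part of the ribosome, fell by 0.48 in WT and by 0.68 in KO.

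The summed level of the 78 genes was lower with LPS in TPM. It was 4194, 3973, 3958 and 3946 TPM in WT control and 2596, 2201, 2584, 2552 and 2414 TPM in WT LPS. In KO it ranged from 3817 to 4079 TPM in control and from 2232 to 2410 TPM with LPS. No LPS library reached a control library, and the log2 ratio of group means was -0.70 in WT and -0.77 in KO. The size of this difference rests on the scale, since summed CPM with TMM factors averaged 1384 in WT control and 1375 in WT LPS, and summed CPM of total counts averaged 1885 and 1119. The ratio of summed large-subunit to small-subunit TPM was 2.09 in WT and 2.11 in KO control libraries, and 1.997 in WT and 1.99 in KO with LPS.

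**Figure D3:**
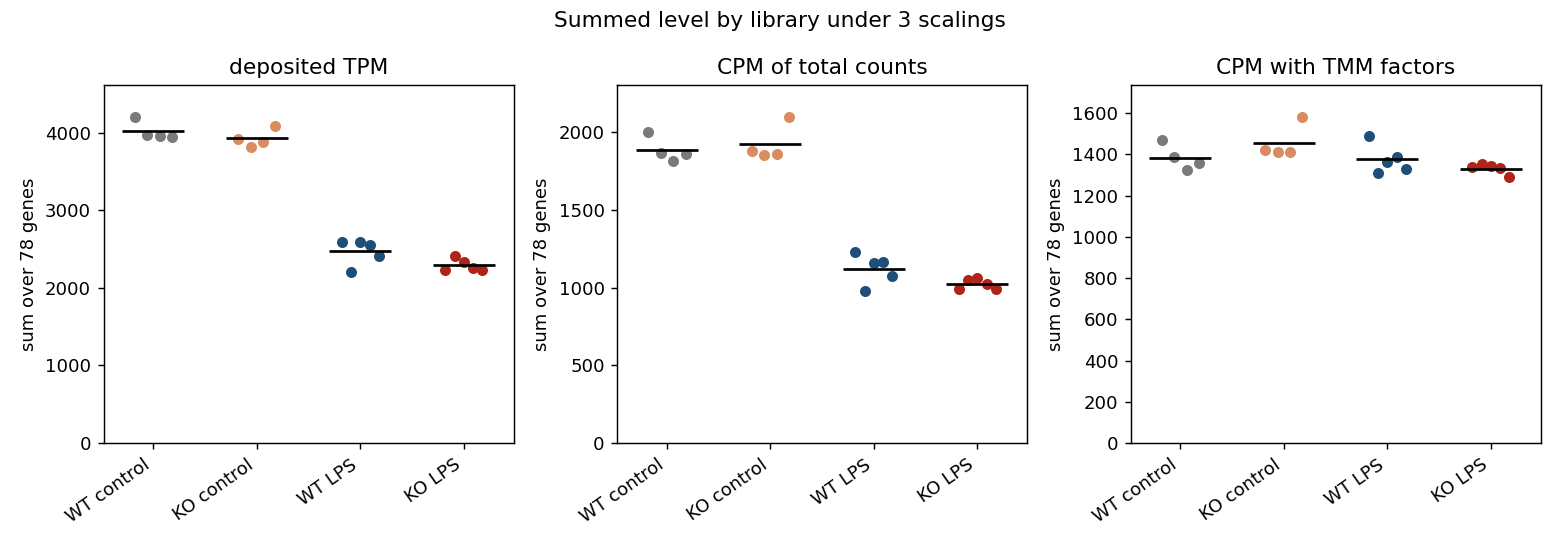
Sum over the 78 genes in every library (vertical axes, from 0) as deposited TPM, as CPM of total counts and as CPM with TMM factors, with a horizontal line at each group mean. LPS libraries lie below control libraries in the first 2 panels, and in the TMM panel the WT means are 1384 for control and 1375 for LPS.

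Both genotypes moved mostly the same members. Under TMM, 17 genes were called higher in both and 32 lower in both, none was called in opposite directions, and 16 were called in neither. Of all tested genes, 85.5% were called in WT and 86.2% in KO. The share of them called alike in both was not computed, so the overlap is not read as particular to the members. A further 5 were called higher in WT alone (Mrpl11, Mrpl30, Mrpl35, Mrpl48 and Mrps21) and 8 lower in KO alone, which by itself is no test of a difference. That difference was tested as the interaction of genotype and LPS. In it 1 member was called with a more positive response in KO, Mrps7, and 1 with a more negative response, Mrpl42, beside 3.82% of all tested genes called, 1.03% and 2.79% by direction. The interaction was negative in 70 of 78 members with a median of -0.15. Of all 11989 tested genes, 6997 were negative, and their median over all was -0.05. With an offset for the implied transcript length the median of the members was 0.01. That offset takes out of each library the trend of level with length. The median implied length of the members was 0.297 of that of all tested genes. A shift shared by genes of like length is thus removed, so this setting cannot decide whether the common shift is one of the members.

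Mrps7 (gene ID 50529) encodes a protein in the head of the small subunit that is of bacterial descent and helps to organise ribosomal RNA there. It read 23.8, 24.5, 22.4 and 21.7 CPM in WT control and 23.5, 24.4, 24.2 and 25.5 CPM in KO control. With LPS it read 46.8, 40.4, 38.9, 42.3 and 39.95 CPM in WT and 62.7, 55.4, 55.6, 57.2 and 55.7 CPM in KO. The control groups overlapped, and every KO LPS library lay above every WT LPS library. The response to LPS was 0.85 ± 0.06 (SE, edgeR adjusted p = 5.67e-11) in WT and 1.23 ± 0.06 (1.42e-13) in KO. The interaction was 0.38 ± 0.08 (0.0157). Total-count scaling gave responses of 0.11 and 0.45.

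Mrpl42 (gene ID 67270), a large-subunit protein specific to mitochondria, went the other way. It read 25.5, 23.2, 22.9 and 23.5 CPM in WT control and 23.8, 23.7, 23.5 and 27.7 CPM in KO control. With LPS it read 10.4, 8.58, 11.9, 10.5 and 9.88 CPM in WT and 6.60, 8.51, 7.51, 8.27 and 5.96 CPM in KO. The control groups overlapped, and the LPS groups were apart by a narrow margin between KO LPS replicate 2 and WT LPS replicate 2. The response was -1.21 ± 0.09 (SE, edgeR adjusted p = 2.66e-10) in WT and -1.74 ± 0.10 (1.24e-12) in KO. The interaction was -0.53 ± 0.14 (0.0347). That interaction call was lost in 11 of 18 fits that left out a single library (adjusted p up to 0.0857), and without both libraries that held neutrophil transcripts (-0.54, adjusted p = 0.0885). With TPM and with the length offset it was lost too.

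Within a library, the TPM ratio of Mrps7 to Mrpl42 carries no library scale factor. It averaged 0.250 in WT control and 0.256 in KO control, against 1.05 in WT LPS and 2.06 in KO LPS. The WT LPS libraries lay between 0.832 and 1.21 and the KO LPS libraries between 1.70 and 2.44, with no overlap. The pair was chosen after its values were seen, so the ratio is a description. Mrpl39 and Mrps35 had the highest and the lowest change with LPS in WT. Their ratio averaged 1.58 in WT control and 1.33 in KO control, and 14.2 and 14.0 with LPS. This pair was picked by those same changes, so its rise with LPS is a description too. The implied length of Mrpl39, which enters its TPM, changed with LPS by -0.20 in WT and -0.24 in KO (log2).

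**Figure D4:**
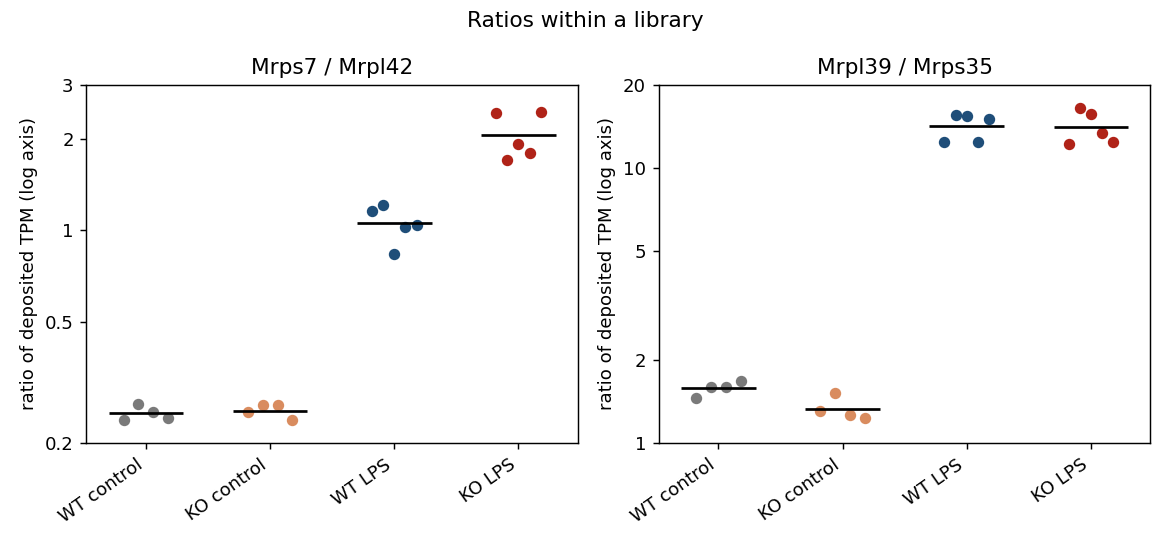
TPM ratio of Mrps7 to Mrpl42 (left) and of Mrpl39 to Mrps35 (right) in every library, on log axes, with a horizontal line at each group mean. The Mrps7 to Mrpl42 ratio separates KO LPS (1.70 to 2.44) from WT LPS (0.832 to 1.21), and the Mrpl39 to Mrps35 ratio has like means in both LPS groups, 14.2 and 14.0.

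Without stimulation, genotype was not seen to change any member. KO against WT in control libraries gave 0 calls with edgeR, with DESeq2 and with limma-voom, 8 members at an unadjusted p under 0.05 in edgeR, and 2.41% of all tested genes called (1.89% higher and 0.525% lower). The median difference was 0.08 over the members, positive in 65 of 78. Over all tested genes it was 0.02, positive in 6852 of 11989. Without KO control replicate 4 the members' median was 0.02, with the length offset it was -0.00074, and with TPM it turned to -0.05. The groups did not overlap, with KO higher, in Mrpl30, Mrpl36, Mrps6 and Mrps18a, 4 members, beside 9.22% of all tested genes, and with KO lower in 0, beside 5.45%.

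With LPS, 1 member was higher and 3 were lower in KO than in WT, beside 10.8% of all tested genes called, 5.3% and 5.5% by direction. The higher gene was Mrps7 (0.46 ± 0.06 SE, edgeR adjusted p = 1.96e-05). The lower genes were Mrpl42 (-0.48 ± 0.10, adjusted p = 0.00385), Mrps23 and Mrps27. Mrps23 (gene ID 64656), a small-subunit protein specific to mitochondria, was at 18.9, 13.1, 15.9, 16.5 and 16.5 CPM in WT LPS and at 11.4, 13.9, 12.2, 12.2 and 12.9 CPM in KO LPS. WT LPS replicate 2 fell inside the KO range, and the difference was -0.37 ± 0.09 (edgeR adjusted p = 0.0108). Mrps27 (gene ID 218506), a small-subunit protein with pentatricopeptide repeats, was at 31.9, 25.8, 28.5, 31.2 and 28.3 CPM in WT LPS and at 26.4, 21.2, 22.2, 25.96 and 22.3 CPM in KO LPS. These groups overlapped through the same WT library, with a difference of -0.30 ± 0.07 (edgeR adjusted p = 0.0107). Only Mrps7 and Mrpl42 of the 78 had KO LPS libraries all above or all below the WT LPS libraries, beside 3.31% and 3.2% of all tested genes. The interaction did not pass for Mrps23 (-0.37 ± 0.13, adjusted p = 0.118) or Mrps27 (-0.26 ± 0.11, adjusted p = 0.211). In control, Mrps27 read 18.1, 16.8, 15.7 and 15.1 CPM in WT and 16.1, 15.1, 15.9 and 16.4 CPM in KO, and its LPS response was 0.83 ± 0.08 (edgeR adjusted p = 5.16e-09) in WT and 0.57 ± 0.08 (1.2e-06) in KO with TMM, against 0.09 and -0.21 with total-count scaling.

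WT LPS replicate 2 decided much of the count of lower members. Without it, 14 members were called lower in KO LPS and 1 higher, beside 14.2% and 13.8% of all tested genes, and 7 were called with a more negative and 1 with a more positive interaction, beside 8.06% and 4.48%. Among the additional lower members was Mrpl28 (-0.43 ± 0.08 SE, edgeR adjusted p = 0.00086), which read -0.32 ± 0.12 (0.0897) with all libraries. Another was Mrpl57 (-0.46 ± 0.11, edgeR adjusted p = 0.0051), at -0.35 ± 0.13 (0.104) with all libraries. Without this library Mrps21 was the 1 member called between genotypes in control (0.23 ± 0.07, edgeR adjusted p = 0.049), beside 4.02% of all tested genes higher and 2.26% lower. Without both libraries that held neutrophil transcripts, the calls with LPS were the same 4 genes.

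**Figure D5:**
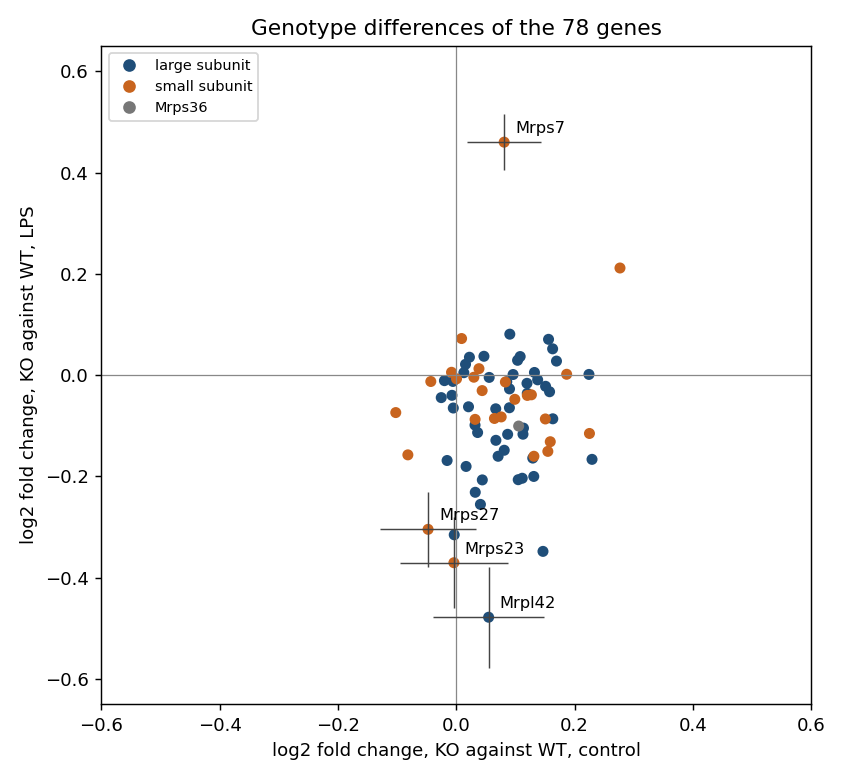
Log2 fold change of KO against WT in control (horizontal axis) and with LPS (vertical axis) for the 78 genes, coloured by subunit, with bars of 1 standard error for the 4 members called with LPS. Mrps7 stands alone at 0.46 with LPS, Mrpl42, Mrps23 and Mrps27 lie between -0.48 and -0.30, and no member passed the test in control.

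Reads that cover exons of 2 genes bear on some of these values, because whether counting used strand is not stated. By GENCODE annotation of build GRCm38, exons of 33 members overlap those of another gene. For Mrps7, 127 bases (6.13% of its exons) overlap Gga3 and 119 bases (5.74%) overlap Mif4gd, both on the opposite strand. Gga3, which sorts cargo at the Golgi, had responses to LPS of 0.65 in WT and 1.13 in KO and an interaction of 0.47 (edgeR adjusted p = 0.0019). Mif4gd rose by 2.35 and 2.43 with LPS. Reads of Mrps7 and of these neighbours cannot be told apart over the shared bases. No exon overlap is annotated for Mrpl42, Mrpl39, Mrpl54, Mrpl28, Mrps35 or Mrps23. For Mrps18c, 250 bases (23.2%) overlap Gm43511, and for Mrps27, 506 bases (24.2%) overlap 6430562O15Rik.

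Members often shared a promoter region with a gene on the other strand. In 17 of 78 (21.8%) another tested gene began within 1000 bases in the opposite direction, against 1091 of 11607 tested genes (9.40%), and this difference was not tested. Of these 17, 10 moved with the same sign as their neighbour under LPS in WT. The examples here were chosen after their values were seen. Mrps27 begins 81 bases from Ptcd2, a mitochondrial RNA-binding protein, and both rose with LPS in WT under TMM (0.83 and 0.67) and both were lower in KO LPS (-0.30 and -0.43). Mrps18c begins 29 bases from Helq, a DNA helicase, and they moved apart, by 0.79 and -1.91. Mrps18b begins 45 bases from Ppp1r10, a regulator of protein phosphatase, which rose by 1.63 in WT while Mrps18b read 0.05.

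Promoters from 250 bases before to 50 bases after the annotated start were taken from RefSeq, build GRCm38.p6, which is not the build GRCm39 named for the counts. They were found for 69 of 78 members, as 75 promoters, and searched on both strands for exact motifs. The ETS motif of GABP, CCGGAAGT, was in 16% of member promoters, 3.89% of all 32851 promoters and 8.16% of the promoters of tested genes. The YY1 motif AAGATGGCG was in 10.7%, 1.40% and 2.99%. The NRF1 motif, searched as CGCATGCGC, was in 9.33%, 1.75% and 3.60%. The SP1 motif GGGCGGGG was in 24% of member promoters, 17.6% of all and 32.0% of those of tested genes, and the E-box CACGTG in 9.33%, 7.15% and 9.92%. The TATA motif TATAAA was in 6.67% of member promoters, 13.6% of all and 7.10% of those of tested genes, and the NF-kB motif, searched as GGACTTTCC, in 1.33% (Mrps21), 0.344% and 0.424%. No searched motif contains another. The ETS motif was in 18.2% of the promoters of members higher with LPS in WT and in 13.3% of those of members lower. No test relates these matches to the changes.

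The 150 bases before the start, 5′ to 3′ on the strand of the gene, are shown for 6 genes with opposite responses, with any match to these motifs in capitals. Mrpl39 and Mrps27 rose with LPS in WT under TMM, Mrps26 fell, and Mrps7 and Mrpl42 are the genes with opposite interactions. Mrps18c shares its upstream bases with Helq.
Mrpl39, chr16:84735245-84735394, minus strand: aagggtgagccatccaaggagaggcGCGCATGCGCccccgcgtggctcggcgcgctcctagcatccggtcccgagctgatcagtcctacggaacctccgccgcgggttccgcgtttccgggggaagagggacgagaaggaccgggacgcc
Mrps27, chr13:99344636-99344785, plus strand: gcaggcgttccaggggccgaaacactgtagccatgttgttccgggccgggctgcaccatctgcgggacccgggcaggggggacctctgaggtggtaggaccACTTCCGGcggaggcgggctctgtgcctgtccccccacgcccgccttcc
Mrps26, chr2:130563607-130563756, plus strand: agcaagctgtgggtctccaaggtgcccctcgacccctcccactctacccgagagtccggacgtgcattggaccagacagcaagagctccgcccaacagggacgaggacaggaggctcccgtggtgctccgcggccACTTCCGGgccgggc
Mrps18c, chr5:100798609-100798758, plus strand: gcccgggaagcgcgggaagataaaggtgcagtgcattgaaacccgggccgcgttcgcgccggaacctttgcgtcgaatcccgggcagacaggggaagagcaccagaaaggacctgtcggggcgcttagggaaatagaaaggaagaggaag
Mrps7, chr11:115603990-115604139, plus strand: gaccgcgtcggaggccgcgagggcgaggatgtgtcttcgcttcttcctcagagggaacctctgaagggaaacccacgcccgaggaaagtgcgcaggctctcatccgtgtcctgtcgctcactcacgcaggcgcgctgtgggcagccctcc
Mrpl42, chr10:95501950-95502099, minus strand: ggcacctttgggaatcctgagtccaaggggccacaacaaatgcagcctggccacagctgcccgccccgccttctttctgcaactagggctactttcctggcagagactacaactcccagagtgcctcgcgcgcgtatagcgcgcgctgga

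The capitals mark the NRF1 motif in Mrpl39, matched on both strands in overlapping letters that begin 125 bases before the start, and the ETS motif in Mrps27 and Mrps26, which begins 49 and 15 bases before it. The same ETS letters thus stand before a gene that rose and before one that fell. The Mrps18c, Mrps7 and Mrpl42 stretches hold none of the searched motifs. Elsewhere in the longer window, Mrps27 and Mrpl42 hold the YY1 motif, Mrps7 the SP1 motif, and Mrps18c the ETS motif and an E-box.

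Most genes of the other parts of the mitochondrial translation system were lower with LPS. The counts below stand beside 40.7% of all tested genes higher and 44.7% lower in WT and 40% and 46.2% in KO, with medians of -0.06 and -0.10. Risers named here beyond the naming rule were chosen after their values were seen. Of 20 mitochondrial tRNA synthetase genes, 0 rose and 18 fell in WT, with a median of -0.73, and 17 fell in KO, with a median of -0.89, where Wars2, for tryptophan, rose by 0.19 with TMM and stood at -0.60 with total-count scaling. Cars2, which charges the cysteine tRNA, was the lowest of those reported here at -2.36 in WT. Of 15 translation factor genes, 3 rose and 11 fell in WT (median -0.75), and 3 rose and 12 fell in KO (median -0.97). Mtrf1, a release factor, changed by -1.45 and -2.10, and Tufm, the elongation factor that brings charged tRNA, by -0.40 and -0.51, while Mss51 rose by 1.40 in WT. The other risers were the elongation factor Gfm1 (0.17 in WT and 0.22 in KO) and Gfm2 (0.43 and 0.45). Both were below 0 with total-count scaling (-0.58 and -0.32 in WT).

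Of 26 assembly genes, 4 rose and 17 fell in WT (median -0.60), and 4 rose and 18 fell in KO (median -0.72). Rbfa, which helps mature the small subunit, changed by -2.94 ± 0.09 (SE) in WT and -3.40 in KO. Nsun4, an RNA methyltransferase of large-subunit assembly, rose by 2.08 ± 0.08 (SE) in WT. Gtpbp6, Mterf3 and Malsu1 rose by 1.27, 0.90 and 0.39 in WT, and Malsu1 stood at -0.35 with total-count scaling. Of 13 mitochondrial transcription and RNA genes, 2 rose and 11 fell in both genotypes, with medians of -1.26 in WT and -1.18 in KO. Polrmt, the mitochondrial RNA polymerase, changed by -1.41 and Tfam, which packages mitochondrial DNA, by -0.33 in WT, while Slirp, an RNA-binding partner of Lrpprc, rose by 1.39. Tefm, a transcription elongation factor, rose by 0.37 with TMM and stood at -0.38 with total-count scaling. Mitochondrially encoded mRNAs were not analysed here.

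Of 5 mitoribosomal proteins with other names, Dap3 of the small subunit rose by 0.43 in WT and 0.37 in KO with TMM and stood at -0.32 and -0.41 with total-count scaling. Ptcd3 fell by 0.79 and 0.77, and Gadd45gip1 fell by 0.79 and 1.06. Chchd1 read 0.03 and -0.24, and Aurkaip1 read -0.03 and -0.14. Of these 5, 1 rose and 2 fell in WT, and 1 rose and 3 fell in KO.

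Of 11 tested regulators of mitochondrial biogenesis, 4 rose and 5 fell in each genotype under TMM. Mtor, a kinase of growth control, rose by 1.04 in WT, and Gabpb1, a subunit of GABP, by 0.94. Nrf1 and Gabpa rose by 0.40 and 0.38 with TMM and stood at -0.34 and -0.37 with total-count scaling. Esrra, a nuclear receptor for genes of oxidative metabolism, fell by 0.95 in WT. Pprc1 read -0.06, and Ppargc1b read 0.66 with an edgeR adjusted p of 0.071. Myc, a driver of ribosome and mitochondrial gene expression, fell by 1.00 in WT and by 0.64 in KO. With LPS it was higher in KO than in WT (0.48, edgeR adjusted p = 3.7e-05), with an interaction of 0.37 (adjusted p = 0.03) that was not called under all 5 scalings. In the same contrast Rbfa (-0.45, edgeR adjusted p = 0.0091) and Rars2 (-0.25, adjusted p = 0.019) were lower in KO, Rars2 as 1 of 2 synthetase genes called lower among the 20. None of the genes of these lists of mitochondrial genes and regulators was called between genotypes in control.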

How the data were processed

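Build GRCm39, HISAT and Bowtie2 are named in the submitters' processing notes. Their versions, the annotation and strand handling are not given in the labels. Per the file headers, the authors deposited for each gene an estimated count, a TPM and an FPKM value per library. The deposited estimated counts are not normalized, and 6.37% were not whole (tolerance 0.001). They were rounded. The deposited TPM served for levels between genes and sums. The deposited FPKM values were used only for the implied transcript length, which entered the tests with the length offset.

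Under R 4.3.3, edgeR 4.0.16 modelled the 18 libraries with a mean per group, filterByExpr (minimum count 10, minimum total 15) and TMM, for 5 contrasts. Alternatives used other scalings, limma 3.58.1 on counts and on log2(TPM + 1), DESeq2 1.42.0, replicate blocks and left-out libraries. Another was an offset for the transcript length implied by count and FPKM. The fit was also run on simulated counts in which a small set of genes changed by known folds, as many up as down. Most genes were unchanged there, unlike with LPS, so it cannot decide how libraries should be scaled.

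The members and gene lists were chosen with earlier results of these data known, so they are no independent support. Genes are named by rule: in each contrast of 2 groups 5 called members from each end of the fold changes, called members of the interaction, the 3 most and the 3 least abundant members, the Mrps18 genes, Mrpl10, Mrpl11, Mrpl12, Mrps12, Mrpl58, Mrps30 and Mrps36, and in each list the extreme called genes and set regulators. Other genes named were chosen after their values were seen. A gene that the rule names is not reported here.

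Same-numbered libraries are not stated to share an animal or day. Deviations from group means of same-numbered WT and KO libraries correlated at 0.03 to 0.25 in control and 0.01 to 0.35 with LPS, so numbers were not taken to pair them.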

Additional observations from a re-analysis of the deposited data

Results flagged for a closer look

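A single library stood far from the others of its group in 13 of 116 groups of 4 or 5 libraries examined, where chance gives about 1 in 20. In TMM-scaled CPM, Mrpl11 was at 19.7 in WT control replicate 1, next to 16.3, and at 23.5 in WT LPS replicate 1, next to 19.6. KO control replicate 4 was highest for Mrpl42 (27.7, next to 23.8), Mrps30 (25.1, next to 21.5) and Mrps36 (10.9, next to 8.99). KO LPS replicate 2 was low for Mrpl17 (15.0, next to 18.2) and high for Mrps18c (27.5, next to 22.9). Mrpl58 was low in WT LPS replicate 2 (10.5, next to 12.4), Mrps23 low in WT control replicate 3 (20.1, next to 22.1), Mrps30 low in KO LPS replicate 4 (17.0, next to 18.0) and Mrps7 high in KO LPS replicate 1 (62.7, next to 57.2). The summed TPM of all members was 4194 in WT control replicate 1, next to 3973, and that of the small subunit was 792 in KO LPS replicate 2, next to 758.

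The response to LPS differed between genotypes in the interaction test for Mrpl42 (-0.53) and Mrps7 (0.38). The Mrpl42 call was lost in 11 of 18 fits that left out a single library, and with TPM and the length offset. That of Mrps7 held in all 18.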

How the results depend on the processing

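Values are calls or log2 changes of the members. For LPS against control, calls over all tested genes with total counts, TPM and the length offset are given above. Total-count scaling gave 2 higher and 68 lower (median -0.81) for LPS in WT, 3 and 72 (-1.01) in KO, and 7 lower (median -0.14) for KO against WT with LPS. In that last contrast 1192 of 11989 tested genes were lower. Upper-quartile scaling gave 13 and 51 (-0.33) in WT and 9 higher (-0.52) in KO. Over all 11989 tested genes it gave 3826 and 6505 in WT and 3724 higher in KO. TPM gave 4 and 69 (-0.76) in WT, 3 and 70 (-0.82) in KO, a median of -0.046 for genotype in control, and 0 lower (median -0.060) in the interaction. Relative log scaling and DESeq2 moved the KO median to -0.13, and DESeq2 called 2 lower in the interaction, beside 421 of 11989 tested genes. The length offset gave 28 higher and 29 lower (median -0.015) in KO and a control median of -0.00074. It gave 2 higher for KO against WT with LPS, beside 864 of 10837 tested genes. In the interaction it gave 0 lower (median 0.013), beside 211 of 10837. Without libraries 5 and 7, KO against WT with LPS had 10 lower and the interaction 7. Of 11950 tested genes, 1484 and 766 were lower there. Without both libraries with neutrophil transcripts, a setting added after seeing the data, the interaction had 0 lower, beside 168 of 12049 tested genes. Under total-count, upper-quartile and TPM values in that order, the WT change turned to -0.49, -0.021 and -0.44 for Mrpl11, -0.67, -0.20 and -0.54 for Mrpl17, -0.58, -0.11 and -0.48 for Mrpl35, and -0.69, -0.22 and -0.67 for Mrps18b. Under total counts and TPM it turned to -0.37 and -0.37 for Mrps21 in WT and to -0.68 and -0.51 for Mrpl11 in KO. In KO, Mrps21 turned to -0.75, -0.26 and -0.62, and Mrps18a to -0.088 under total counts. The log2 ratio of summed levels was -0.0094 in WT, -0.13 in KO and 0.071 in control with TMM, and -0.91 in KO with total counts. The cause of these changes was not tested.

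Leaving out a library at a time gave 19 to 24 higher and 30 to 33 lower in WT (median -0.11 to -0.04), 17 to 18 and 40 to 41 in KO (-0.24 to -0.19), and 0 to 1 higher and 0 lower for genotype in control (0.02 to 0.11). It gave 1 higher and 3 to 14 lower for KO against WT with LPS (-0.07 to -0.03), and 1 higher and 0 to 7 lower in the interaction (-0.18 to -0.10). A replicate block by the numbers in the titles gave 21 and 32 in WT, 18 and 41 in KO, 0 and 0 in control, 1 and 3 with LPS, and 1 and 1 in the interaction. A replicate block by runs of library numbers gave 4 lower for KO against WT with LPS and 3 lower in the interaction. Of 11989 tested genes, 950 and 632 were lower with that block. WT deviations in those runs correlated at 0.14 to 0.27, a hint from the data and not from the design. Depth did not leave any member at 0.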
